A study of Mus musculus with 6 samples.

Results

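Granins are acidic proteins that aggregate in the trans-Golgi network and are stored with peptide hormones in the dense-core granules of endocrine cells and neurons. In these granules the prohormone convertases PC1/3 and PC2 cut hormone precursors after paired basic residues, and carboxypeptidase E then trims the basic residues left at the new ends. Pancreatic islet cells use this pathway, whereas acinar cells store digestive enzymes in zymogen granules.

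The genes described here are 8: the granin genes Chga, Chgb, Scg2 and Scg3, the gene Scg5 for the PC2 chaperone 7B2, the convertase genes Pcsk1 (PC1/3) and Pcsk2 (PC2), and Cpe. They were taken by symbol from the deposited table, which holds 20596 rows with a gene symbol, and 7 had a row. Scg5 had none, so its expression was not analysed here. The 8 were chosen by values of these libraries, with the difference between the 2 groups known, so what follows on that difference is a description and carries no test. 6 of the 8 passed the filter on low values (at least 10 normalized counts in at least 3 libraries), as did 16169 genes in all, and Pcsk1 did not.

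RNA was sequenced from 266.6 cells, an established mouse line of acinar tumour cells, in 2 groups of 3 libraries. The CAF_CM group was treated with medium conditioned by cancer-associated fibroblasts for up to 40 days, and the control group was the same line labelled Control. No time in culture or control medium is stated for the control group, so the conditioned medium cannot be told apart from the duration of culture. The labels do not say that the libraries of a group came from separate cultures, and the spread between them may be technical.

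Each library held between 18622370 and 21002226 reads. A normalized count is a read count divided by 1 factor per library, as deposited, with 1 read worth between 0.949 and 1.05. Libraries of the control group varied less (coefficient of variation beyond sampling noise 2.20%) than those of the CAF_CM group (8.23%). Of 10 acinar markers all had a row. Of the 9 tested, limma called 5 lower and 0 higher, where it called 16.1% of all genes tested lower and 18.3% higher. The sum of the 10 ran from 65106 to 67628 normalized counts in control and from 33662 to 40169.6 in CAF_CM libraries. Most of this sum was Ctrb1, the chymotrypsinogen B gene, with means of 45083 in control and 23668 in CAF_CM libraries. Of the 5 called lower, Cela2a and Cel had control means of only 21.5 and 19.9. Cpa1, Ptf1a and Bhlha15 were not called (log2 differences 0.12, 0.15 and 0.14), and neither was Pnlip (-0.16). Of 10 fibroblast markers 7 had a row, and Col3a1, Lum and Fap had none. The sum of the 7 ran from 3506 to 3699 in control and from 3160.0 to 3642 in CAF_CM libraries. Most of it was Pdgfrb, with means of 3254 in control and 3016 in CAF_CM libraries. Of the 7 tested, limma called 1 higher (Col1a2) and 1 lower (Dcn). In bulk RNA, fewer cells with a transcript and less of it in each cell cannot be told apart.

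The promoters of these genes share a sequence feature that the choice of members did not use. The cAMP response element is an 8-base palindrome, TGACGTCA, and its first 5 bases, TGACG, form a short site that is found on its own in many promoters. The transcription factors CREB1 and ATF1 are known to bind both forms. Promoters from RefSeq (GRCm38.p6) were matched by symbol for 7 of the 8 genes, Cpe being the one without a match, and the 250 bases before each annotated start were searched on both strands. The full palindrome was found before Chgb, Scg2 and Pcsk1, which is 3 of 7 against 1.55% of all 32851 promoters in the table. The short site, which also lies within the palindrome, was found before 7 of 7 against 17.8% of all promoters. The sequences CAGATG, an E-box form, and TATAAA, the TATA box, were found in 0 of the 7 windows and in 14.4% and 12.4% of all promoters. The last 120 bases before the start are shown for the 6 members that have both a promoter and a row, to show where the matches lie. They read 5′ to 3′ on the strand of the gene, and capitals mark the short site or the palindrome.
Chgb: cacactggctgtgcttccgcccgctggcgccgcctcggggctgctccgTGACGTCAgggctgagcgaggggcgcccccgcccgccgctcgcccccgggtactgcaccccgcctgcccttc
Scg2: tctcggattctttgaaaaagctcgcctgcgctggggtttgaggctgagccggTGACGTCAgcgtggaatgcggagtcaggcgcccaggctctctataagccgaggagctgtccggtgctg
Pcsk1: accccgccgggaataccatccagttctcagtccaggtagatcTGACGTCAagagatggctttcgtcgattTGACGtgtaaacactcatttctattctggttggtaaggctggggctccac
Chga: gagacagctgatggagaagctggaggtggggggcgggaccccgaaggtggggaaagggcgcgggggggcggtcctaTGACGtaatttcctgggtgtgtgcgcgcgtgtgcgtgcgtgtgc
Scg3: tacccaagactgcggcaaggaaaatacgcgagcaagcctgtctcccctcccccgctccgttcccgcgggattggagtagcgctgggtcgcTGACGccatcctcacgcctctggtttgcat
Pcsk2: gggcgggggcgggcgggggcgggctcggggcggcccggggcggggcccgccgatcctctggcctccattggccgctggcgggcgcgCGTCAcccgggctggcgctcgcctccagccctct

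These windows lie at chr2:132781522-132781641, plus strand (Chgb), chr1:79440027-79440146, minus strand (Scg2), chr13:75089737-75089856, plus strand (Pcsk1), chr12:102554821-102554940, plus strand (Chga), chr9:75684057-75684176, minus strand (Scg3) and chr2:143546013-143546132, plus strand (Pcsk2). Counted from the start, the palindromes began at -72 in Chgb, -68 in Scg2 and -78 in Pcsk1. Pcsk1 held another short site at -50. The single short sites began at -44 in Chga, -30 in Scg3 and -34 in Pcsk2, where the match is on the opposite strand and reads CGTCA in the printed one. In Scg5 the short site began at -175, outside the 120 bases. The match is of letters only, and no binding was measured.

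**Figure D1:**
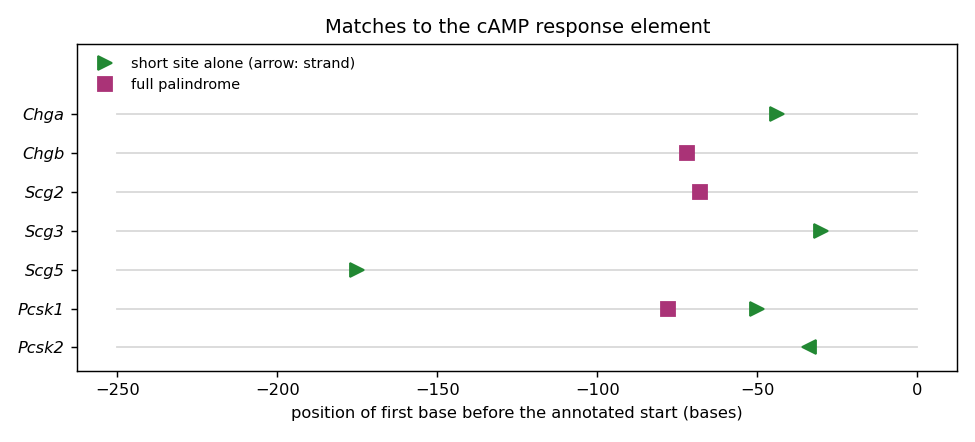
Positions of cAMP response element matches in the 250 bases before the annotated start of 7 genes (horizontal axis, bases). Squares are full palindromes and arrows short sites alone, pointing along their strand; the 3 palindromes begin between -78 and -68.

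Among the granins, the 4 members differed widely in their values under CAF_CM. Chga encodes chromogranin A, the founding granin. Its values were 31012, 31425 and 31251 normalized counts in the control libraries (replicates 1, 2 and 3 in order) and 22885, 24051 and 22184 with CAF_CM. Every CAF_CM library was below every control library, with means of 31229 ± 208 and 23040.0 ± 943 (± SD, n = 3 in each group, as in all that follows), which is 1.36-fold lower under CAF_CM (log2 difference -0.44, SE 0.05).

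Chgb encodes chromogranin B, a larger granin stored beside chromogranin A. It had 4882, 4978 and 5021 normalized counts in the control and 5028, 5045 and 4903 in the CAF_CM libraries. The groups overlapped, and the means of 4960.3 ± 70.9 and 4992 ± 77.2 gave a log2 difference of 0.01 (SE 0.04, 95% interval -0.0860 to 0.104).

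Scg2 encodes secretogranin II, the precursor of the peptide secretoneurin. It was far less abundant, with 65.5, 66.3 and 67.0 normalized counts in the control and 22.7, 19.6 and 11.4 in the CAF_CM libraries. These rest on 64 to 68 reads per control library and on 22, 20 and 12 reads in the CAF_CM replicates. The groups did not overlap, the mean was 3.71-fold lower under CAF_CM, and the log2 difference of -1.89 (SE 0.24) was the largest of the 6 members that passed the filter. CAF_CM replicate 3 was the lowest, and without it the difference was -1.61.

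Scg3 encodes secretogranin III, which binds chromogranin A to the granule membrane. Its values were 4871, 5023 and 5209 normalized counts in the control and 4374, 4609 and 4579 in the CAF_CM libraries. The groups did not overlap, but the difference was small, 1.11-fold lower under CAF_CM (log2 difference -0.16, SE 0.05), and it was -0.09 once each library was corrected for the length and GC content of transcripts.

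The processing enzymes also differed among themselves. Pcsk2 encodes PC2, the convertase that makes glucagon from its precursor in islet alpha cells and that needs the Scg5 product to mature. It had 451, 435 and 468 normalized counts in the control and 229, 264 and 187 in the CAF_CM libraries. All CAF_CM libraries were below all control libraries, with means of 451 ± 16.6 and 227 ± 38.8 and a log2 difference of -1.003 (SE 0.11), and the mean was 1.99-fold lower.

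Pcsk1 encodes PC1/3, the convertase that starts proinsulin processing. It was close to the limit of detection, with 8, 6 and 6 reads in the control and 3, 4 and 7 in the CAF_CM libraries. The groups overlapped, and a difference was not detectable at this depth.

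Cpe encodes carboxypeptidase E, which acts after the convertases. It had 2941, 2856 and 2905 normalized counts in the control and 2723, 2741 and 2373 in the CAF_CM libraries. The groups did not overlap, with a log2 difference of -0.15 (SE 0.06). It was -0.09 without CAF_CM replicate 3 and -0.05 after the length and GC correction.

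**Figure D2:**
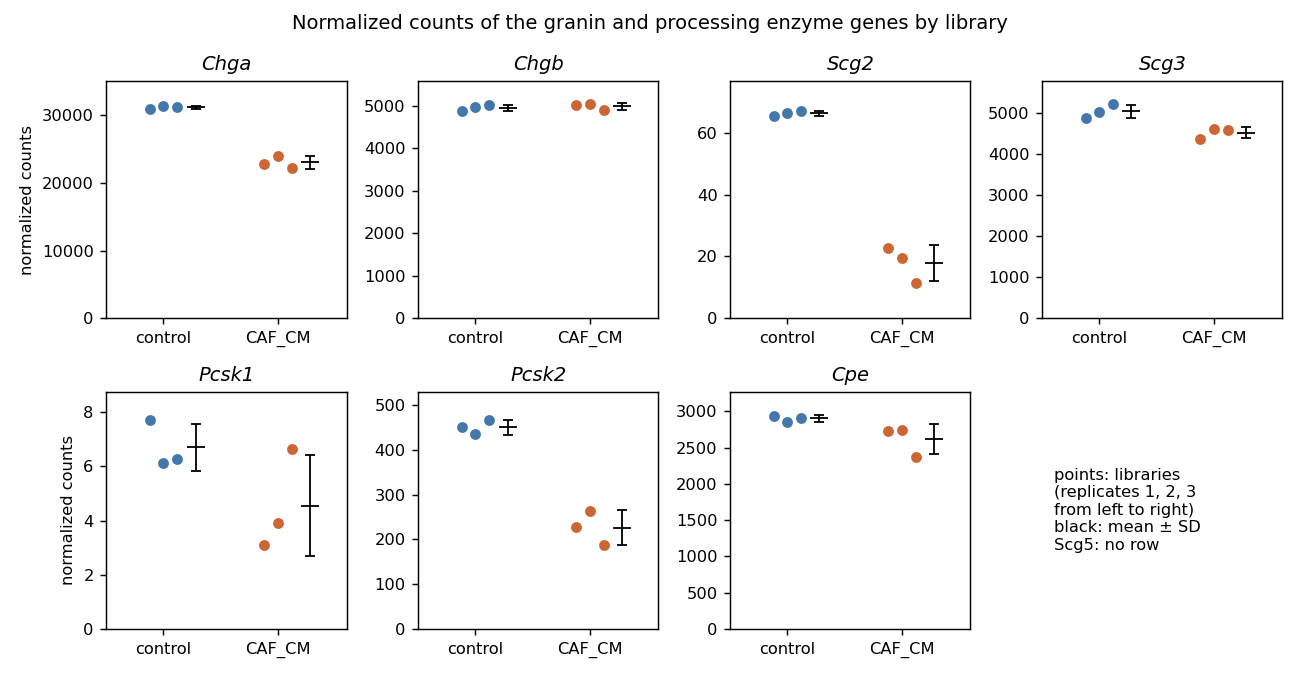
Normalized counts (vertical axes, each from 0) of the 7 genes with a row, for 3 control and 3 CAF_CM libraries, with the mean and SD in black. The groups overlap for Chgb and Pcsk1 and are apart for the other 5, by most in proportion for Scg2.

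In all, 5 members (Chga, Scg2, Scg3, Pcsk2 and Cpe) were below every control library in every CAF_CM library, where 22.9% of all genes tested were. No member was above, where 24.8% of all genes tested were. The contrast chose the members, so nothing is read from these shares. When libraries were scaled by their totals alone, all 6 members that passed the filter were below, Chgb included with a log2 difference of -0.04. After the length and GC correction 4 were, and Chgb then stood at 0.11.

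Ratios within a library do not depend on the scaling between libraries. Per length, Chga had 9.24, 9.19 and 9.06 times the level of Chgb in the control libraries and 6.62, 6.94 and 6.58 times in the CAF_CM libraries. Scg2 had 14.6, 14.5 and 14.5 per 1000 of Chgb in control and 4.91, 4.23 and 2.53 in CAF_CM. Pcsk2 had 68.7, 68.2 and 72.2 per 1000 of Cpe in control and 37.6, 43.2 and 35.3 in CAF_CM. The groups were apart in each of these 3 ratios. The contrast chose the members, and ratios of other gene pairs were not computed, so nothing is read from this.

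**Figure D3:**
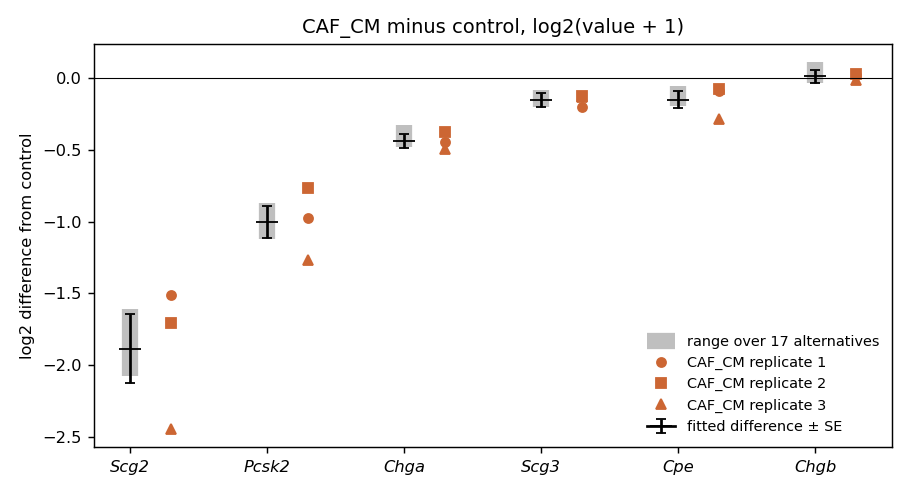
Log2 difference from control (vertical axis) of the 6 members past the filter: fitted value ± SE in black, the range over 17 alternatives in grey and each CAF_CM library in orange. The values run from -1.89 for Scg2 to 0.01 for Chgb, and CAF_CM replicate 3 is the lowest library for Scg2, Pcsk2, Chga, Cpe and Chgb.

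The levels of the members differed widely. On a scale of reads per kilobase of transcript and per 1000000 reads (RPKM, computed with the longest transcript of each gene), Chga stood at 858 ± 4.11 in control and 613 ± 25.7 in CAF_CM libraries. That was rank 40 of 15772 genes in control and rank 73 in CAF_CM, so chromogranin A was an abundant transcript of this acinar line. Scg3 followed with 109 ± 2.95 RPKM and Chgb with 93.7 ± 0.677 RPKM in control. In CAF_CM these neighbours in the order, at 95.1 ± 3.07 and 91.3 ± 1.32 RPKM, overlapped in their libraries. Cpe had 70.9 ± 1.42 RPKM in control and 61.9 ± 4.82 in CAF_CM.

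Pcsk2 stood at 4.94 ± 0.175 RPKM in control and 2.41 ± 0.412 in CAF_CM. Scg2 came next with 1.36 ± 0.00615 RPKM in control and 0.356 ± 0.115 in CAF_CM. Pcsk1 was last in both groups, at 0.0688 ± 0.00945 and 0.0453 ± 0.0186 RPKM. The order of the 7 was the same in both groups. Together the 7 genes took 0.231% ± 0.000319 of the reads of control and 0.178% ± 0.00643 of those of CAF_CM libraries. Chga made up 69.9% ± 0.336 of these reads in control and 65.1% ± 0.371 in CAF_CM.

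**Figure D4:**
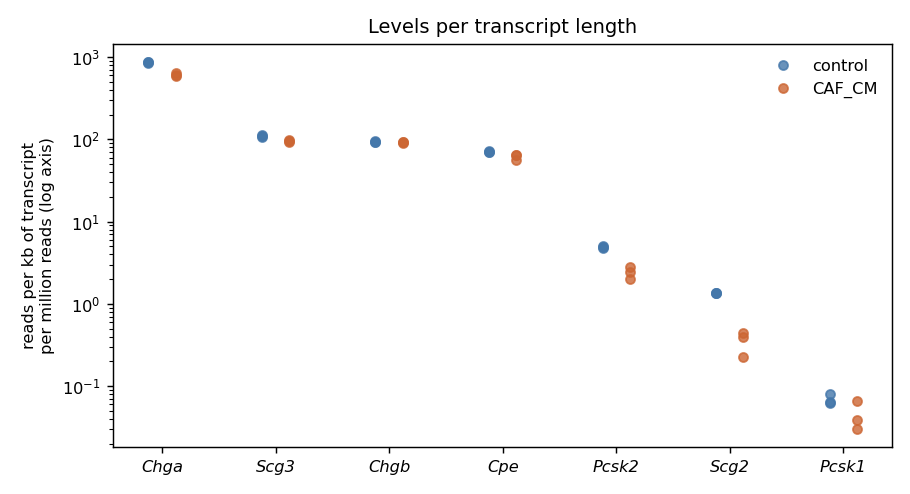
Levels of the 7 genes in RPKM (vertical axis, log scale), 1 point per library, blue for control and orange for CAF_CM. Chga is highest in every library, at 592 to 862, and Pcsk1 lowest, at 0.0306 to 0.0797.

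The other genes of the pathway were read from a limma fit over all 16169 genes with Benjamini-Hochberg adjustment, in which 18.3% of genes were called higher and 16.1% lower in CAF_CM. The split was 2953 higher and 2602 lower, and 2231 and 3179 when libraries were scaled by their totals alone. The 5 lists of other pathway genes together gave 15 higher and 13 lower in 70 tested. The other granins tested were Vgf, the precursor of several neuropeptides, and Pcsk1n, which encodes the PC1/3 inhibitor proSAAS. Vgf had 109 ± 13.1 normalized counts in control libraries against 118 ± 9.09 in CAF_CM (95% interval of the log2 difference -0.165 to 0.387), and Pcsk1n 40.9 ± 8.31 and 32.7 ± 8.38 (-0.826 to 0.184). Neither passed the test (adjusted p = 0.533 and 0.309), and their groups overlapped.

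Of 16 other processing enzymes tested, 7 fell and 0 rose, with a median log2 difference of -0.20 against 0.00459 for all genes tested. At an unadjusted p under 0.05 limma gave 0 higher and 9 lower, edgeR on the recovered reads called 0 higher and 7 lower, and DESeq2 0 and 7. Over all genes, an unadjusted p under 0.05 was reached by 23.5% higher and 20.9% lower, edgeR called 17.9% higher and 16.6% lower, and DESeq2 15.2% and 13.0%. Pcsk6, a convertase of the constitutive pathway, fell 1.70-fold from 617 ± 18.9 to 363 ± 15.3 normalized counts (log2 difference -0.76, SE 0.07, limma adjusted p = 3.34e-05). Ctsl, a cysteine protease that also acts on prohormones, fell from 6977 ± 73.1 to 5496 ± 202. Cpn1, a plasma carboxypeptidase, fell from 6935 ± 229 to 5729 ± 142. The other falls included Furin (-0.21), the main convertase of the trans-Golgi network, Pcsk4 (-0.45) and Qpct (-0.43), which forms the pyroglutamate end of some hormones. Pam, the enzyme that amidates peptide hormones, had 1449.5 ± 24.8 and 1442 ± 69.6 normalized counts (adjusted p = 0.920), and Cpd, a carboxypeptidase of the trans-Golgi network, 4488 ± 134 and 4538 ± 195 (adjusted p = 0.837), although Cpd was called lower after the length and GC correction (log2 difference -0.14). The call on Furin was lost without control replicate 1 or 2 (limma adjusted p = 0.0592 and 0.0612). Pam, Cpd, Furin, Pcsk4 and Qpct were named after their values were seen.

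Genes of granule formation and the granule membrane gave 5 rises and 2 falls in 26 tested, with a median log2 difference of 0.06. Over all genes tested, limma called 18.3% higher and 16.1% lower. Ptprn encodes IA-2, a membrane protein of dense-core granules. It had 2447, 2516 and 2592 normalized counts in the control and 3119, 3247 and 3133 in the CAF_CM libraries. It rose 1.26-fold with no overlap between the groups (log2 difference 0.33, SE 0.05, adjusted p = 3.97e-04). Hid1 (0.31) and Ccdc186 (0.40), which act in granule maturation at the trans-Golgi network, rose as well. Cadps (0.23), a priming factor of granule exocytosis, and Vti1a (0.19) also rose, whereas Cadps2 (-1.02, from 27.6 to 13.1 normalized counts) and Pick1 (-0.29) fell. These 4 were named after their values were seen. The call on Cadps was lost with library totals (0.18, limma adjusted p = 0.0748), after the length and GC correction (0.07, 0.310) and without CAF_CM replicate 2 or 3 (0.0703 and 0.0870) or control replicate 1, 2 or 3 (0.126, 0.0948 and 0.0511). That on Vti1a was lost with library totals (0.14, 0.103), in DESeq2 (0.149), and without CAF_CM replicate 1 or 3 (0.0547 and 0.0795) or control replicate 1, 2 or 3 (0.129, 0.0770 and 0.134). That on Pick1 was lost without control replicate 3 (0.0601).

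Of 48 peptide hormone genes listed, 22 had a row and 13 passed the filter. The insulin genes Ins1 and Ins2 and the somatostatin gene Sst had no row, and the glucagon gene Gcg had between 5.69 and 13.7 normalized counts in any library. Of the 13, 3 rose and 4 fell (median log2 difference -0.10), where limma called 18.3% of all genes tested higher and 16.1% lower. Penk, the enkephalin precursor, was the most abundant of the 13. It had 3064, 2977 and 2919 normalized counts in the control and 1765, 1368 and 1737 in the CAF_CM libraries, a fall of 1.85-fold (log2 difference -0.89, SE 0.08, adjusted p = 4.76e-05). Sct, the secretin gene, rose 1.56-fold from 590 ± 16.9 to 921 ± 79.8 normalized counts, and Gal, the galanin gene, 1.72-fold from 47.8 ± 3.49 to 83.3 ± 7.49. The others that changed were Cck (0.96), Nmb (-0.48), Calca (-0.58) and Npff (-1.23), named after their values were seen. The highest value among them in any library was 108.1 normalized counts, for Calca. The calls on 3 of these low genes were lost in some alternatives. Cck lost it in DESeq2 (adjusted p = 0.0637) and in limma without control replicate 1 or 2 (0.103 and 0.0681) or CAF_CM replicate 2 or 3 (0.0783 and 0.0515). Nmb lost it in DESeq2 (0.134), after the length and GC correction (0.0672) and without control replicate 1 or 2 (0.107 and 0.140) or CAF_CM replicate 3 (0.0861), and Npff without control replicate 2 or 3 (0.0701 and 0.0579).

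Transcription regulators of endocrine and neuronal genes moved in 1 direction. Of 13 tested, 7 rose and 0 fell, where limma called 18.3% of all genes tested higher and 16.1% lower. The median log2 difference of the 13 was 0.26. At an unadjusted p under 0.05 limma gave 8 higher and 0 lower, and edgeR and DESeq2 each called 7 higher and 0 lower. Neurod1, a basic helix-loop-helix factor of endocrine differentiation, had a log2 difference of 2.05 (SE 0.17). Insm1, a zinc finger factor of endocrine cells, rose 1.38-fold from 2856 ± 75.1 to 3974 ± 592 normalized counts (adjusted p = 0.00167), and St18, a zinc finger factor related to Myt1, rose by 0.51.

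Creb1 encodes a factor known to bind the cAMP response element. It had 1351, 1268 and 1326 normalized counts in the control and 1622, 1877 and 1804 in the CAF_CM libraries. It rose 1.34-fold with no overlap between the groups (log2 difference 0.42, SE 0.06, adjusted p = 4.66e-04). Atf1, its close relative, rose by 0.22, and Nkx6.1 (1.13) and Myt1 (0.26) complete the 7. Atf1, Nkx6.1 and Myt1 were named after their values were seen. The call on Atf1 was lost with library totals (0.18, limma adjusted p = 0.0713) and without control replicate 1, 2 or 3 (0.0939, 0.105 and 0.0763) or CAF_CM replicate 3 (0.0935). Rest, the repressor of neuronal genes, whose known targets include several granins, had 174 ± 14.3 and 174 ± 1.96 normalized counts (95% interval of the log2 difference -0.209 to 0.223). Whether any of these regulators bears on the members was not tested.

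**Figure D5:**
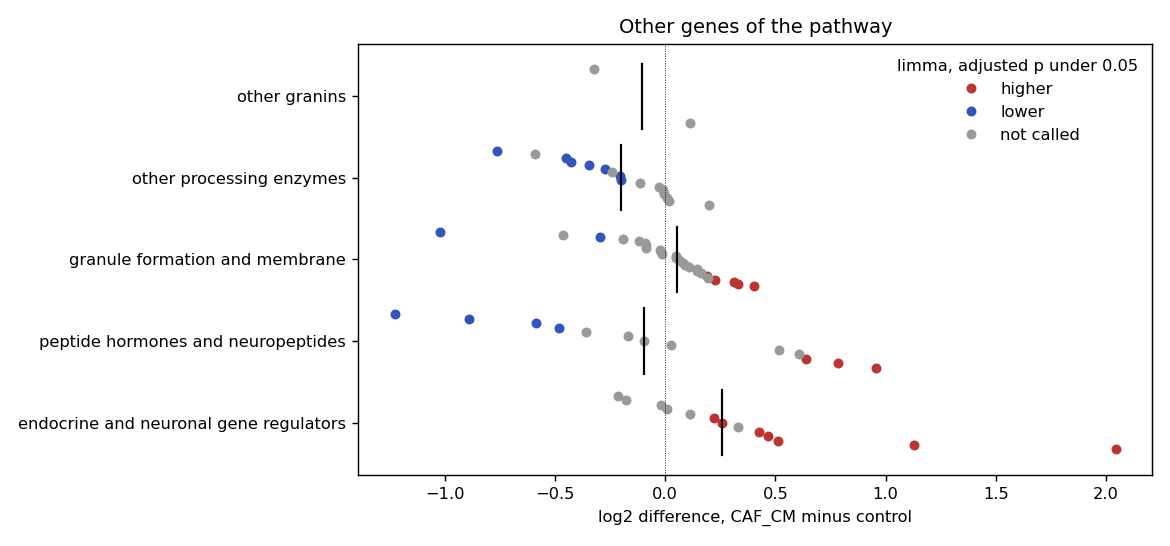
Log2 difference between CAF_CM and control (horizontal axis) of 70 other genes of the pathway in 5 lists, 1 point per gene, red for called higher, blue for called lower and grey for not called; vertical bars are list medians. The processing enzymes hold blue and grey points only and the regulators red and grey points only.

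The genes whose values followed those of Chga most closely over the 6 libraries were sought among 10366 genes with a mean of at least 100 normalized counts, by Pearson's r on log2(value + 1). They were Gask1a, Josd2, Smtnl2, Lonp1 and Olfml2b, with r between 0.9985 and 0.9998. The group difference sets most of this likeness, and all 5 were lower in CAF_CM, from -0.17 for Lonp1, the mitochondrial Lon protease, to -0.96 for Smtnl2.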

How the data were processed

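Libraries of total RNA came from a TruSeq kit, as the labels' protocols say. FastQC, DESeq2 and, although symbols are of mouse genes, the human build hg19 appear in the submitters' processing notes. Aligner, counter and mouse build are not given in the sources used here. The deposited values are a signal: reads per gene divided by 1 factor per library by the authors, as the values show. In each library 100% of values were whole multiples (within 0.001 of a read) of the worth of 1 read, which gave back the reads. Rows with no symbol (168 of 20764, at most 0.261% of reads) were left out. The lowest total of a row was 10 reads.

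Limma 3.58.1 (R 4.3.3) was fitted to log2(value + 1) with a variance trend, over genes with at least 10 in 3 libraries, with Benjamini-Hochberg adjustment and a threshold of 0.05. Fold changes on this scale understate those of low genes. The p-values measure only the spread between these libraries. On simulated counts for this comparison over 16169 genes, 96% of genes raised and 88% of those lowered by 1 log2 unit were called, and 3 of 15969 unchanged genes. For changes of 0.5 log2 units the shares were 72% and 82%. The simulation used 1 dispersion per group for all genes, so it leaves out differences in spread between genes. The members, lists and rules were chosen with earlier results of these data known. Named were all members; up to 3 called genes per list by adjusted p, or the 2 of highest mean; Neurod1, Insm1, Rest, Vgf and Pcsk1n; and the 5 genes most like the member of highest mean, leaving out predicted genes and pseudogenes. RPKM and the length and GC correction (a spline per library) used the longest GENCODE M21 transcript, found for 97.5% of genes tested. Between libraries of a group, reads differed by more than sampling noise, and all libraries were counted. Chi-square per degree of freedom was 1.19 for control replicates 2 and 3, and 1.96 and 2.31 for the other control pairs. It was 6.56 to 11.8 in CAF_CM. Such spread does not show that the libraries came from separate cultures. Of the genes counted in the lists, 1 is not reported here by name. Alternatives were edgeR 4.0.16 (also with the size factors of DESeq2) and DESeq2 1.42.0 on the recovered reads, pseudocounts of 0.5 and 5, other filters, library totals, TMM, the length and GC correction, a replicate block, and each library left out.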

Additional observations from a re-analysis of the deposited data

How the results depend on the processing

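Counts of calls and log2 differences were recomputed under 17 alternatives, apart from Gask1a and Npff with 16 each. Pcsk1, below the filter, had none, and the count of members below every control library was recomputed under 3 scalings only. Leaving out 1 library gave between 1868 and 3509 genes called higher and between 1659 and 2943 called lower, the lowest counts being those without control replicate 1 (1868 and 1659). Without control replicate 2 they were 1967 and 1715, and 1723 genes were lower when control replicate 3 was left out. The counts were 3509 and 2943 without CAF_CM replicate 1 and 3100 and 2786 without CAF_CM replicate 2, against 2953 and 2602 with all libraries. The cause of these differences was not tested. EdgeR on the recovered reads called 2888 higher and 2682 lower, and 5466 of its calls were also among limma's 5555, with the same sign. Calls among the other genes of the pathway ranged from 11 to 19 higher and from 9 to 17 lower. The 13 called genes outside the members that the naming rule chose from the lists kept their direction and their call under all 17. Of 15 further called genes of the lists, 6 kept their call under all 17 and 9 lost it under 1 or more, with 0 reversed. With the replicate block, the call on Vti1a was lost (adjusted p = 0.0519). Cpd, not called as reported, was called lower after the length and GC correction (-0.14); the cause was not tested. Of the 5 genes most like Chga, Lonp1 lost its call without control replicate 2 (adjusted p = 0.0561). The direction of the 6 members past the filter was kept under all 17, apart from Chgb, whose log2 difference ran from -0.04 to 0.11. Same-numbered libraries of the groups did not deviate together by more than r = 0.0703, so the numbers were not taken as pairs. Each library correlated best with its own number, and with the replicate block 3166 genes were called higher and 2755 lower. Depth limits Pcsk1, at 3 to 8 reads per library, and Scg2, at 12 reads in CAF_CM replicate 3.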
